A study of Mus musculus with 6 samples.

Results

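The 8 genes described here are those of the cytokine IL-21 and its receptor chain (Il21, Il21r), 3 receptor chains of the IL-6 family (Il6ra, Il6st, Il27ra) and 3 further helper T cell cytokines (Il10, Ifng, Il2). They were chosen by name, and all 8 were among the 23065 genes with a value in every library. They were measured in T follicular helper (Tfh) cells, the CD4+ T cells that help B cells in germinal centres. RNA was sequenced in 3 libraries labelled WT and 3 labelled Bob1KO. The Bob1KO cells came from FoxP3GFP/DTR CD4Cre/+Bob1fl/fl mice and the WT cells from FoxP3GFP/DTR CD4+/+Bob1fl/fl littermates, so that both groups carried the FoxP3 GFP/DTR reporter and the floxed Bob1 allele, and the controls lacked only Cre. All mice were on the C57BL/6 background and received 100 µg of NP-CGG, a hapten coupled to a protein carrier, in complete Freund's adjuvant (CFA) by the intraperitoneal route. The spleens were taken on day 7, and each library was made from cells pooled over several mice of 1 experiment. The sorted cells were CD3+CD4+CXCR5+PD-1+ and negative for B220 and GFP, which left out FoxP3+ follicular regulatory cells.

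Cre under control elements of Cd4 acts in the thymus, so the deletion was present in all T cells that had passed through a CD4+ stage and not in Tfh cells alone. Bob1, also called OCA-B, is encoded by Pou2af1 and is a coactivator of the octamer-binding factors Oct1 and Oct2. As the check of the labels, Pou2af1 was at 46.1, 32.5 and 34.4 FPKM in the WT libraries and at 1.16, 0.237 and 0.317 FPKM in the Bob1KO libraries, and the groups were far apart. FPKM counts fragments per kilobase of transcript, scaled to the mapped fragments of a library, and every level below is on this scale. All 9 markers of Tfh cells that were looked for were detected and tested. Their summed level, led by Cd3e, was 3121, 2271 and 2208 FPKM in WT replicates 1 to 3. In Bob1KO replicates 1 to 3 it was 3081, 2341 and 2542 FPKM.

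IL-21 is the cytokine by which Tfh cells drive the growth and differentiation of germinal centre B cells and plasma cells, and it also acts on the T cells that make it. Its receptor pairs the IL-21R chain with the common gamma chain and signals through Janus kinases and mainly STAT3. IL-6 binds the IL-6R alpha chain and IL-27 binds the IL-27R alpha chain, and both then use the shared chain gp130, the product of Il6st. Both cytokines are known inducers of IL-21 in CD4+ T cells. IL-2, made early after activation, acts through STAT5 and limits the Tfh programme, while IFN-gamma and IL-10 shape class switching and the survival of B cells.

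In the mouse genome (GRCm38) Il21 lies at chr3:37222759-37232636 and Il2 at chr3:37120713-37125954, on the same chromosome and 96804 bases apart, with the genes Gm36000 and Gm12532 between them. Il6ra lies at chr3:89869324-89913196, Il21r at chr7:125603252-125634397, Il6st at chr13:112464070-112506860, Il27ra at chr8:84030286-84042600, Il10 at chr1:131019845-131024970 and Ifng at chr10:118441046-118445894. Since the library kit does not mark the strand, reads of overlapping genes cannot be told apart. This touches Il21, which shares 2788 bases with the non-coding gene Gm36168, Il6ra, which shares 18140 bases with the non-coding gene Gm46811, and Il27ra, which shares 386 bases with Palm3.

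The sequence around the transcription start, from 250 bases before to 50 after it, was taken from RefSeq (GRCm38.p6) for the 6 of the 8 genes that had an entry. Il10 and Il27ra are named only. 4 of them are printed here because they span the range of CG content among these genes, and they stand at chr3:37232587-37232886 on the minus strand (Il21), chr3:37125905-37126204 on the minus strand (Il2), chr10:118440796-118441095 on the plus strand (Ifng) and chr13:112463820-112464119 on the plus strand (Il6st). Each is written from 5′ to 3′ on the strand of the gene, and the capitals mark every CG dinucleotide and every TATAAA.
Il21: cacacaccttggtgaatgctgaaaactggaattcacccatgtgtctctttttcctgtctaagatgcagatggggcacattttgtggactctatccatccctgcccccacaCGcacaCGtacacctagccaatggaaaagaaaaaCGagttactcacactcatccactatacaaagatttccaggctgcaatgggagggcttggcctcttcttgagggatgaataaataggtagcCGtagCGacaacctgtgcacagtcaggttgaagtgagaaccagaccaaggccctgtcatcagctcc
Il2: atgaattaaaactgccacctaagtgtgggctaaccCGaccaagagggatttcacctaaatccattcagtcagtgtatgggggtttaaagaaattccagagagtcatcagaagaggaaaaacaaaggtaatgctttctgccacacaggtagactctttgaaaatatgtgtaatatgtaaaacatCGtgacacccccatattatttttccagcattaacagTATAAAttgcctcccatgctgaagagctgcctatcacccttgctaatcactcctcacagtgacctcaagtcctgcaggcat
Ifng: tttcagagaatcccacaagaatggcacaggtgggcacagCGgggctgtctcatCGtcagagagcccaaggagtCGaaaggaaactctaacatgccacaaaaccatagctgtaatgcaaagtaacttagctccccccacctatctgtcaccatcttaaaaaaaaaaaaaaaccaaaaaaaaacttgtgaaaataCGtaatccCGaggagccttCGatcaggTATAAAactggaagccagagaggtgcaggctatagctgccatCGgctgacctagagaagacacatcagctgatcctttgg
Il6st: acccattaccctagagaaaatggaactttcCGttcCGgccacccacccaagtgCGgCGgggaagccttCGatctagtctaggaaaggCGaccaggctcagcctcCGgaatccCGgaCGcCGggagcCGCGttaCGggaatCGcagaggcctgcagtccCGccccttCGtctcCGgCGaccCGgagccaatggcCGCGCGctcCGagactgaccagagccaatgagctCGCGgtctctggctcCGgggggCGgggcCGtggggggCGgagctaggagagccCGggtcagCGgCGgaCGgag

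Il6st and Il6ra were richer in CG dinucleotides than the other 4 promoters with an entry. Il6st held 33 CG dinucleotides at a GC content of 68.3%, more than 91.4% of the 32851 promoter windows in the table by the first measure. Il6ra held 25 at a GC content of 66%. Il21r held 7, Ifng 7, Il21 5 and Il2 2, against a median of 7 over all windows. The letters TATAAA, read on the strand of the gene, stood 30 to 25 bases before the start of Ifng and 31 to 26 bases before the start of Il2, and 8.32% of all windows hold them. Il21, Il21r, Il6ra and Il6st did not contain these letters in the window. The octamer ATTTGCAT, the letters that Oct1 and Oct2 bind, was searched on both strands and was found in none of the 6 windows and in 1.74% of all windows. The shorter octamer core ATGCAA, on either strand, was found in Ifng alone among the 6 and in 10.7% of all windows. The palindrome TTCNNNGAA, the letters of a STAT site, was found in Ifng alone among the 6 and in 8.3% of all windows. These matches describe short windows of sequence, and distal elements were not searched.

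The approximate depth lay between 16700000 and 24000000 mapped fragments per library. Of the lists of markers of other cells, the myeloid list, led by the neutrophil gene S100a8, varied most between libraries. Its sum was 610, 521 and 990 FPKM in the WT libraries and 4376, 79.6 and 1414 FPKM in the Bob1KO libraries, with 7 of its 9 genes measured. The B cell list, led by Cd22, summed to between 23.0 and 39.2 FPKM in WT and between 27.2 and 52.6 FPKM in Bob1KO. The list of regulatory T cells, led by Ctla4, which Tfh cells also express, summed to 135 to 215 FPKM and 145 to 195 FPKM. Of its 6 genes 5 were measured, and Foxp3 had no value. Plasma cell, dendritic cell and erythroid genes, led by Derl3, Itgax and Hba-a1, stayed at or below 9.44 FPKM in sum in every library. The plasma cell genes Jchain and Mzb1 and the erythroid gene Hbb-bs had no value and are not in these sums. The Y-linked gene Ddx3y was listed at 0 in all libraries but replicate 2 of both groups.

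Il21 was an abundant transcript in both groups. Its level was 93.6, 58.3 and 46.8 FPKM in WT replicates 1 to 3, and 81.2, 63.0 and 75.2 FPKM in Bob1KO replicates 1 to 3. The WT libraries included both the highest and the lowest of the 6 values, all 3 Bob1KO libraries fell within the WT range, and the groups overlapped. The fitted log2 fold change of Bob1KO over WT, on the log2(FPKM + 1) scale used for all fold changes here, was 0.19 with a standard error of 0.249 and a 95% confidence interval from -0.40 to 0.78 (limma, adjusted p = 0.958). The exact permutation test of the 3 against 3 libraries, which cannot give less than 0.1, gave p = 0.6. Between libraries of the same replicate number the log2 difference was -0.20, 0.11 and 0.67 and changed sign. A fit with the replicate number as a block gave a standard error of 0.188 and an adjusted p of 0.873 (limma). In RNA of whole sorted populations fewer cells that express a gene and less RNA per cell cannot be told apart, for Il21 and for every gene that follows. Without WT replicate 3 the fold change was -0.02 and without WT replicate 1 it was 0.47, so that single WT libraries set its direction. The reading of each library was itself precise, since the confidence bounds that Cufflinks gives for Il21 were 2.56% to 3.35% of the value, and the spread lies between the libraries. The spread of Il21 within groups was larger than that of 80.7% of the genes tested. The summed markers of Tfh cells given above ranked the 6 libraries as Il21 did, though single markers were not all ordered so. The part of the Tfh content of the libraries in this spread was not tested.

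**Figure D1:**
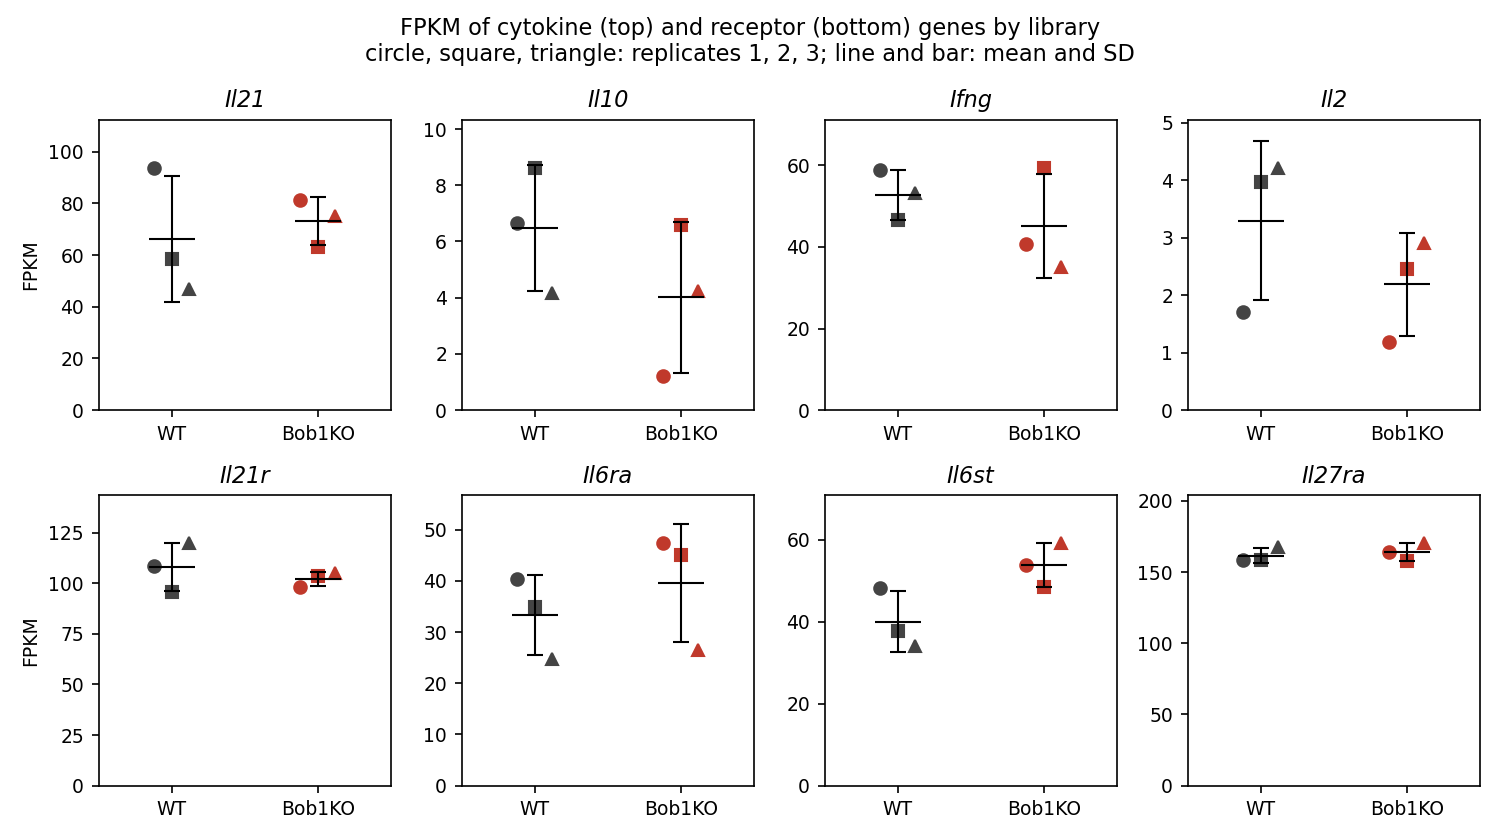
FPKM of the 8 genes in each of the 3 WT and 3 Bob1KO libraries, with 1 panel per gene, a circle, square and triangle for replicates 1, 2 and 3, and a line at the group mean with its standard deviation. Il6st is the gene whose groups do not overlap, with 34.1 to 48.3 FPKM in WT and 48.5 to 59.1 FPKM in Bob1KO, and the other 7 genes overlap, while 10.7% of all tested genes have groups that do not overlap.

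The genes whose pattern over the 6 libraries was closest to that of Il21 were sought among the 6083 genes with a mean of at least 10 FPKM, by the root mean square difference of their centred log2(FPKM + 1) values. Tox2, which encodes a DNA-binding protein of the Tfh programme, was closest with a difference of 0.0828, against a median of 0.379 over all these genes. Tox2 was at 337, 212 and 199 FPKM in WT and at 292, 230 and 274 FPKM in Bob1KO, so that WT replicate 1 was the highest and WT replicate 3 the lowest library, as for Il21. It was followed by Sec14l1 with 0.0855, Rundc1 with 0.0989, Fkbp5 with 0.115 and Slc9a9 with 0.118. Among the other members Il6st was the closest to Il21 with a difference of 0.201, and 1.76% of the genes were closer. Il6ra with 0.327, Il27ra with 0.333 and Il21r with 0.372 stood nearer to the median, and Ifng with 0.458 was farther than 78.1% of the genes. The 6 libraries share their preparation and depth with every gene, so these figures only describe likeness of pattern.

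**Figure D2:**
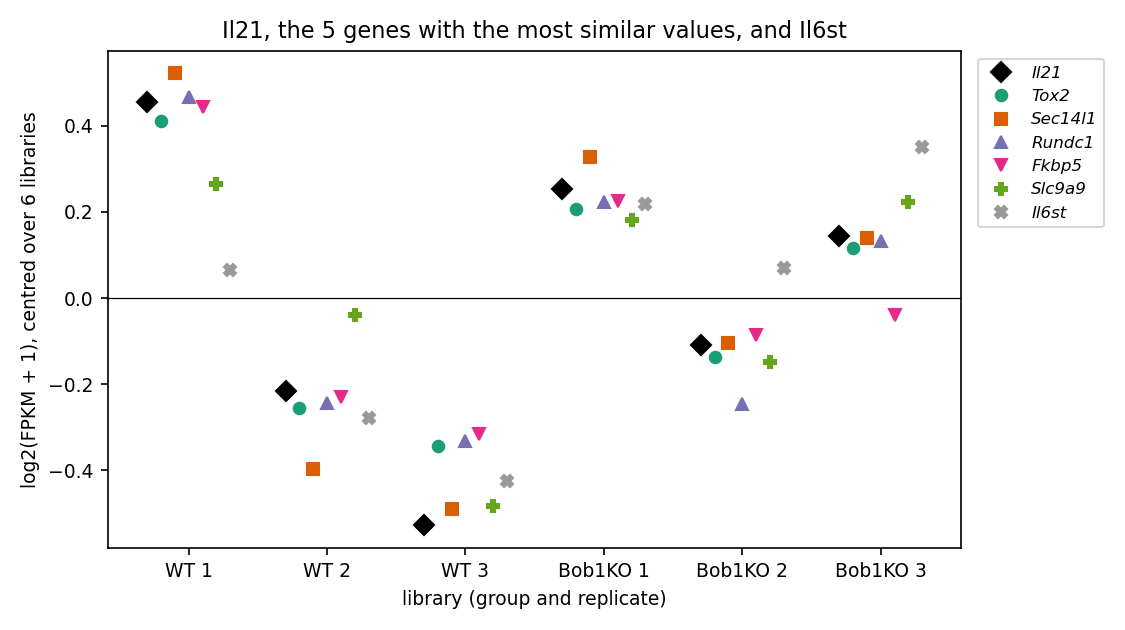
Log2(FPKM + 1), centred over the 6 libraries, of Il21 (black diamonds), of the 5 genes with the closest pattern and of Il6st (grey crosses), by library. Il21 is highest in WT replicate 1 and lowest in WT replicate 3, and the points of Tox2 lie close to it in each library, with a root mean square difference of 0.0828.

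Il2, on the same chromosome as Il21, was the lowest of the 8 genes. It was at 1.70, 3.97 and 4.21 FPKM in WT and at 1.19, 2.46 and 2.91 FPKM in Bob1KO. Replicate 1 was the lowest library of each group and the groups overlapped. The log2 fold change was -0.41 with a standard error of 0.340 and an interval from -1.22 to 0.39 (limma, adjusted p = 0.948), and the exact permutation test gave p = 0.4. It was -0.16 without Bob1KO replicate 1 and -0.72 without WT replicate 1. Within each pair of the same replicate number Il2 was lower in Bob1KO, at 0.699, 0.619 and 0.691 of its WT partner on the linear FPKM scale. A gene lower in all 3 pairs was no rarity, since 13.4% of the tested genes were. With the replicate number as a block the standard error was 0.183 and the adjusted p was 0.816 (limma). At this level the depth limits the reading, since the Cufflinks bounds of Il2 were 21.3% to 52.9% of its value and match about 14.3 to 88.1 fragments per library. Il21 and Il2 were not ordered alike over the libraries, as WT replicate 1 held the highest Il21 and the lowest Il2 of its group.

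Il10, the gene of a cytokine that dampens inflammation and also promotes plasma cell differentiation, was low and variable. It was at 6.65, 8.61 and 4.16 FPKM in WT and at 1.23, 6.58 and 4.23 FPKM in Bob1KO. Bob1KO replicate 1 stood below all others and the remaining libraries were mixed. The log2 fold change was -0.70 with a standard error of 0.460 and an interval from -1.79 to 0.39 (limma, adjusted p = 0.948), and the exact permutation test gave p = 0.4. Without Bob1KO replicate 1 it was -0.20. With the replicate number as a block the standard error was 0.375 and the adjusted p was 0.829 (limma). Bob1KO replicate 1 was also the library with the highest myeloid sum, 4376 FPKM, while Bob1KO replicate 2, with the lowest sum of 79.6 FPKM, had the highest Il10 of its group. The part of these cells in the result was not tested. The spread of Il10 within groups exceeded that of 94.9% of the tested genes.

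The values of Il10 and Il6st depended on how the assembled transcripts were counted. Each of the 8 genes had 1 row that spanned the gene in every library, and for these 2 genes some libraries held further, shorter rows inside the gene. Added for Il10, these rows brought 2.63 FPKM in WT replicate 1, 5.58 FPKM in WT replicate 3 and 1.36 FPKM in Bob1KO replicate 1. The sums were then 9.28, 8.61 and 9.74 FPKM in WT and 2.59, 6.58 and 4.23 FPKM in Bob1KO, and the groups no longer overlapped. The log2 fold change of the sums was -0.97 with a standard error of 0.269 (limma, adjusted p = 0.771), and the exact permutation test gave 0.1, the smallest p it allows. FPKM of separate rows of a gene do not strictly add, because each is scaled by the length of its own transcript, and this sum was chosen after the values had been seen. In the deposited group table, which rests on 1 assembly common to all libraries, the authors' group value of Il10 was 9.15 FPKM in WT and 5.32 FPKM in Bob1KO.

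**Figure D3:**
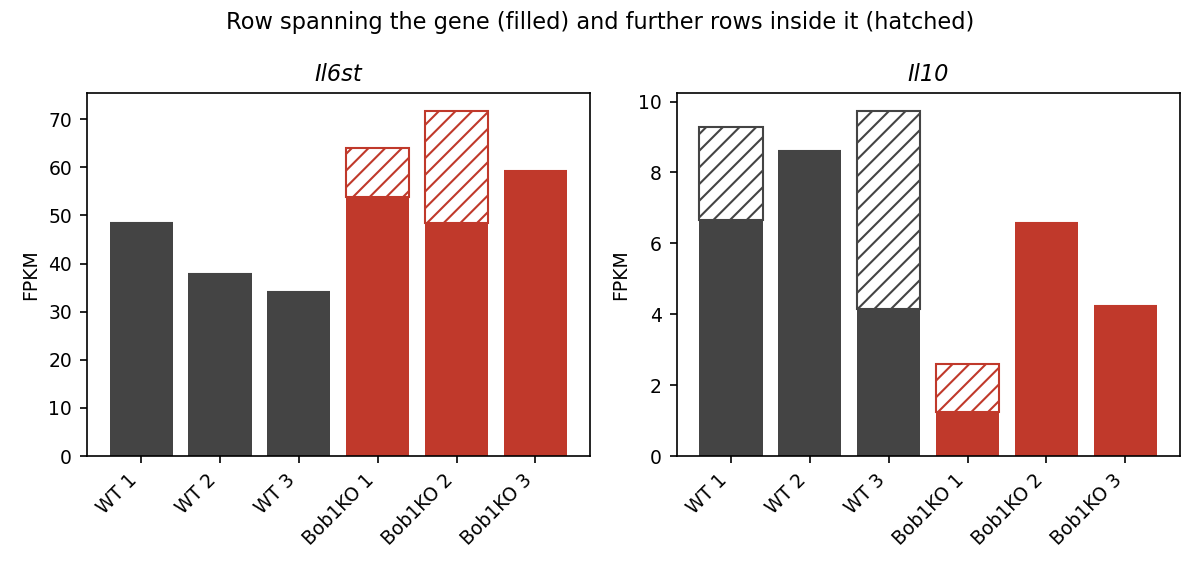
FPKM of Il10 and Il6st per library as stacked bars, with the row that spans the gene filled and the other rows inside the gene hatched above it. The other rows add up to 5.58 FPKM to Il10, in WT replicate 3, and up to 23.3 FPKM to Il6st, in Bob1KO replicate 2.

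Ifng, the gene of the type 1 helper cytokine, stood at a level near those of Il6st and Il6ra. It was at 58.7, 46.5 and 53.2 FPKM in WT and at 40.8, 59.3 and 35.02 FPKM in Bob1KO. Bob1KO replicate 2 held the highest of the 6 values and the other Bob1KO libraries the lowest, so the groups overlapped. Its log2 fold change was -0.25 with a standard error of 0.203 and an interval from -0.73 to 0.22 (limma, adjusted p = 0.948), and the exact permutation test gave p = 0.4. It was -0.47 without Bob1KO replicate 2, -0.09 without Bob1KO replicate 3 and -0.55 without both replicate 2 libraries. Markers of NK and CD8 T cells, which also make IFN-gamma, summed to 22.6, 30.0 and 31.7 FPKM in WT and to 24.9, 28.2 and 25.7 FPKM in Bob1KO, led by Klrb1c and with all 9 genes measured. Of the 5 tested, 2 were fitted higher and 3 lower in Bob1KO, with a median log2 fold change of -0.15. Of these, Prf1, which encodes perforin and is named here after its values were seen, was at 2.78, 2.56 and 3.06 FPKM in WT and at 0.907, 1.84 and 1.16 FPKM in Bob1KO (limma, adjusted p = 0.830). Klrb1c and Eomes were the genes fitted higher, with log2 fold changes of 0.12 and 0.09. The genes of the list were uneven in level, and those that follow are named after their values were seen. Cd8a was at no more than 0.139 FPKM, Ncr1 at no more than 0.290 FPKM and Klrk1 at no more than 0.389 FPKM in any library. Klrd1 reached 1.23 FPKM and Gzmb 2.17 FPKM, while Cd8b1 was at 3.44 FPKM or more in every library. The part of these cells in the level of Ifng was not tested.

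Of the receptor chains, Il6st differed the most between the groups. This gene of the shared signalling chain gp130 was at 48.3, 37.8 and 34.1 FPKM in WT and at 53.8, 48.5 and 59.1 FPKM in Bob1KO. The groups did not overlap, but the highest WT library and the lowest Bob1KO library were level within the Cufflinks bounds. The row of Bob1KO replicate 1 was unlike the others, as its bounds match 1724 fragments against 4514 to 7286 in the other libraries. Its value may thus not be fully comparable, and without this library the log2 fold change was 0.42. On the log2 scale the fold change was 0.43 with a standard error of 0.155 and an interval from 0.06 to 0.79, and it did not pass the adjusted threshold (limma, unadjusted p = 0.0282, adjusted p = 0.909). The exact permutation test gave 0.1, the smallest p it allows. Il6st was higher in Bob1KO in all 3 pairs, with log2 differences of 0.15, 0.35 and 0.78, as were 14.8% of the tested genes. With the replicate number as a block the standard error was 0.152 (limma, unadjusted p = 0.0367, adjusted p = 0.758). With further rows inside the gene added, which brought 10.1 FPKM in Bob1KO replicate 1 and 23.3 FPKM in Bob1KO replicate 2 and nothing in WT, the log2 fold change was 0.69 with a standard error of 0.154 (limma, adjusted p = 0.453). The authors' group values of Il6st were 47.5 FPKM in WT and 63.8 FPKM in Bob1KO. The unadjusted p was above 0.05 when WT replicate 2, WT replicate 3, Bob1KO replicate 1 or Bob1KO replicate 3 was left out, and the log2 fold change then stayed at 0.32 or above.

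Il6ra, the gene of the chain that binds IL-6, was at 40.4, 34.8 and 24.8 FPKM in WT and at 47.3, 45.1 and 26.4 FPKM in Bob1KO. Replicate 3 was the lowest in both groups and replicate 1 the highest, and the groups overlapped. The fragments matching the Cufflinks bounds ran the other way in WT, at 1304, 1526 and 1868 in replicates 1 to 3. In Bob1KO they were 1517, 2248 and 1273. Transcripts were assembled in each library alone, and the part of the assembly in the order of Il6ra was not tested. A log2 fold change of 0.23 was fitted with a standard error of 0.265 and an interval from -0.40 to 0.85 (limma, adjusted p = 0.958), and the exact permutation test gave p = 0.5. It was 0.03 without WT replicate 3 and 0.49 without Bob1KO replicate 3. When the replicate number was a block, the standard error was 0.113 and the adjusted p was 0.821 (limma). Within the pairs Il6ra was at 1.17, 1.30 and 1.07 of its WT partner on the linear scale, so that it was higher in all 3 pairs, by less than replicates 1 and 3 differed within each group. Myeloid cells also carry this receptor, and Bob1KO replicates 1 and 2, at 47.3 and 45.1 FPKM, had the highest and the lowest myeloid sum of the 6 libraries. The part of these cells in the result was not tested.

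Il21r and Il27ra were the most abundant of the 8 and the most even. Il21r was at 109, 95.8 and 120 FPKM in WT and at 98.4, 104 and 105 FPKM in Bob1KO. All Bob1KO libraries fell inside the WT range, and the log2 fold change was -0.07 with a standard error of 0.115 and an interval from -0.34 to 0.20 (limma, adjusted p = 0.968). Without WT replicate 3 it was 0.00. Il27ra was at 159, 158 and 168 FPKM in WT and at 164, 158 and 170 FPKM in Bob1KO. Its highest library was 1.08 times its lowest, and 0.753% of the tested genes had a smaller spread within groups. The log2 fold change of Il27ra was 0.02 with a standard error of 0.0953 and an interval from -0.20 to 0.25 (limma, adjusted p = 0.988). The exact permutation test gave p = 0.5 for Il21r and 0.7 for Il27ra.

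By their mean level over the 6 libraries the genes stood in the order Il27ra with 163 FPKM, Il21r with 105, Il21 with 69.7, Ifng with 48.9, Il6st with 46.9, Il6ra with 36.5, Il10 with 5.24 and Il2 with 2.74 FPKM. The ranges of Il27ra and Il21r, of Il21r and Il21, and of Il6ra and Il10 did not overlap. The other neighbours in this order overlapped over the 6 libraries. Compared within each library, Il21 was above Il6st and Il6ra in all 6, and Il6st was above Il6ra in all 6, while Ifng changed places with each of these 3 genes in some libraries. Il27ra had a higher level than 95.03% of the tested genes.

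Of the 8 genes 4 had a higher and 4 a lower fitted level in Bob1KO, with a median log2 fold change of -0.03 against -0.00 over all 9955 genes tested. None passed the adjusted p of 0.05 with limma, which 0.0201% of the tested genes passed, and 1 of 8 had an unadjusted p below 0.05, against 5.31% of the tested genes. The groups did not overlap for 1 of 8 genes, against 10.7% of the tested genes. The exact permutation test could not have passed a threshold of 0.05 for any gene. In simulated data on the 9955 genes 45% of 2-fold changes and 93% of 4-fold changes were recovered by limma, so a 2-fold change could often be missed. The folds here are those of FPKM + 1, and for low genes such a change is larger in FPKM itself. The changed genes were drawn from all levels and spreads, so these shares do not describe the 8 genes in particular. Their own intervals reached down to -1.79 for Il10 and -1.22 for Il2, and those of the others lay between -0.73 and 0.85. The intervals were narrowest for Il27ra and widest for Il10.

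**Figure D4:**
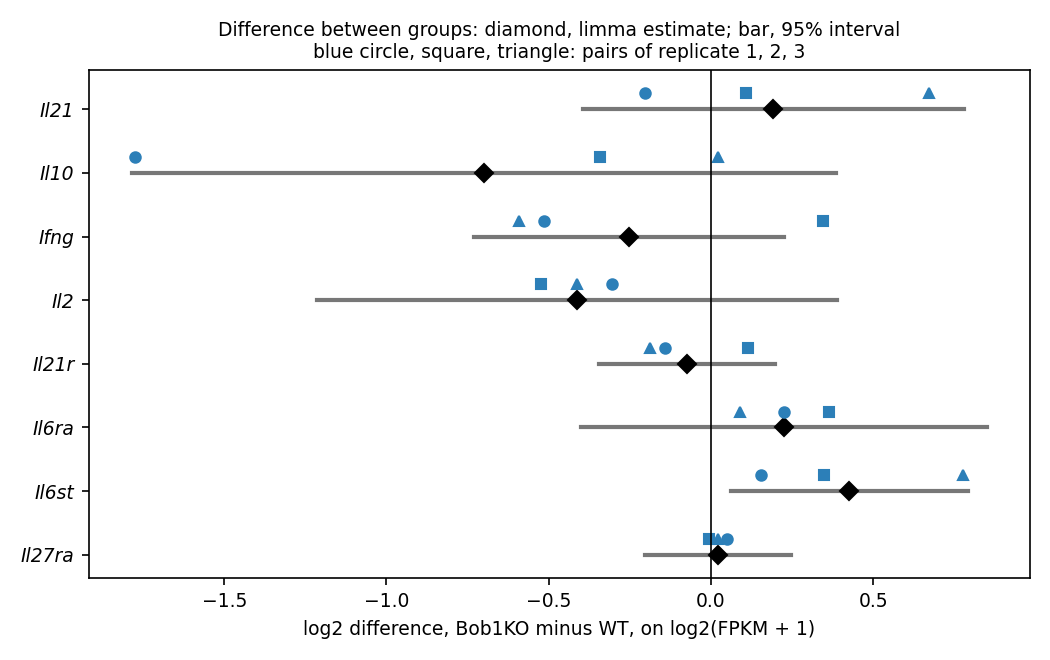
Log2 fold change of Bob1KO over WT of the 8 genes with its 95% confidence interval from limma, and the difference within each pair of the same replicate number as points. The interval of Il6st, from 0.06 to 0.79, is the one that does not include 0, and its adjusted p is 0.909.

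The genes around these cytokines were followed by lists of named genes. Of 10 ligands of the IL-6 family 8 were measured and 3 were tested, and 3 were at 0 in every library. Il6 itself was at no more than 0.428 FPKM and Il27, which encodes a subunit of IL-27, at no more than 0.0838 FPKM in any library, both named after their values were seen. Osm, which encodes oncostatin M, was the most abundant ligand with means of 12.4 FPKM in WT and 12.6 FPKM in Bob1KO. The other tested ligands, Clcf1 and Lif, had means of 10.9 and 3.77 FPKM in WT and of 9.94 and 4.32 FPKM in Bob1KO. None of the 3 tested ligands had an unadjusted p below 0.05, and their median log2 fold change was 0.06. Of 8 other receptor chains of this family 7 were measured and 2 tested, Il12rb1 and Il12rb2, which form the IL-12 receptor. Il12rb1 had means of 15.3 FPKM in WT and 14.5 FPKM in Bob1KO, and Il12rb2 had 1.38 and 0.723 FPKM. Neither passed the adjusted or the unadjusted p, and their median log2 fold change was -0.26.

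The receptor chains of IL-2, IL-10 and IFN-gamma were fitted slightly lower in Bob1KO where they were tested, and none passed the test. All 6 tested of 7 listed had a fitted fold change under 0, the median being -0.10 on the log2 scale, against 49.4% of all tested genes with a positive one. The most abundant was Il2rg, the common gamma chain that IL-21R and the IL-2 receptor share, at 635 ± 110 FPKM in WT and 598 ± 47.3 FPKM in Bob1KO (SD, n = 3). Ifngr2, a chain of the IFN-gamma receptor, was at 5.85 ± 0.696 and 5.26 ± 0.980 FPKM, and Il2ra, the alpha chain of the IL-2 receptor, at 1.35 ± 0.330 and 1.12 ± 0.436 FPKM. None of the 6 had an unadjusted p below 0.05.

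Of the Janus kinases and STATs 10 of 11 were tested, of which 8 were fitted higher and 2 lower in Bob1KO, at a median log2 fold change of 0.15. None passed the adjusted p with limma, 1 of 10 had an unadjusted p below 0.05 against 5.31% of all tested genes, and the groups of 3 of 10 did not overlap against 10.7%. Over all tested genes 49.4% were fitted higher. These shares are also the background of the other lists. Tyk2, a kinase that binds gp130, was at 24.6, 27.6 and 27.4 FPKM in WT and at 31.6, 32.0 and 31.7 FPKM in Bob1KO, with a log2 fold change of 0.25 and a standard error of 0.103 (limma, adjusted p = 0.920). Stat5a, which conveys the IL-2 signal, was at 27.9, 25.1 and 26.9 FPKM in WT and at 30.2, 30.4 and 31.9 FPKM in Bob1KO (limma, adjusted p = 0.938). Stat3, which conveys the IL-6 and IL-21 signals and is named after its values were seen, was at 99.3, 86.7 and 99.0 FPKM in WT and at 106, 109 and 104 FPKM in Bob1KO (limma, adjusted p = 0.948). In all 3 genes every Bob1KO library was above every WT library, by small amounts that did not pass the adjusted p.

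Of the feedback inhibitors, the SOCS proteins, PIAS proteins and phosphatases that restrain cytokine signals, 9 of 11 were tested. Of these 2 were fitted higher and 7 lower in Bob1KO, at a median of -0.07. Ptpn6, the gene of the phosphatase SHP1, was the most abundant with means of 191 FPKM in WT and 180 FPKM in Bob1KO. Socs5 was at 2.59 FPKM in WT and 3.65 FPKM in Bob1KO on average, and its groups did not overlap (limma, adjusted p = 0.935). Ptpn11, the gene of the phosphatase SHP2, which binds gp130, had means of 46.3 and 35.9 FPKM (limma, adjusted p = 0.935). Genes linked to STAT3 in T cells had a median log2 fold change of 0.15, with 8 of the 11 tested fitted higher and 3 lower. Among them Irf4, which encodes a transcription factor that acts on Il21, was at 4.91, 4.78 and 2.89 FPKM in WT and at 5.62, 5.87 and 7.75 FPKM in Bob1KO, with no overlap and a log2 fold change of 0.53 with a standard error of 0.221 (limma, unadjusted p = 0.0482, adjusted p = 0.920). Fosl2, of the AP-1 family, had means of 0.807 and 1.90 FPKM (limma, adjusted p = 0.921), and Junb, of the same family and the most abundant of the list, had 2482 and 2050 FPKM. None of the genes of either list passed the adjusted p.

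The other helper cytokines were tested for 6 of 14 genes, of which 1 was fitted higher and 5 lower in Bob1KO, at a median of -0.15. Tnf was the positive one, with means of 31.3 FPKM in WT and 39.4 FPKM in Bob1KO (limma, adjusted p = 0.948). Lta, of lymphotoxin alpha, had means of 33.8 and 30.1 FPKM (limma, adjusted p = 0.948), and Ltb, of lymphotoxin beta, was the most abundant with 897 and 813 FPKM. Il4, the helper cytokine that Tfh cells make together with IL-21 and which is named after its values were seen, was at 79.4, 55.1 and 35.8 FPKM in WT and at 55.7, 47.6 and 23.7 FPKM in Bob1KO (limma, adjusted p = 0.948). It was lower in Bob1KO in each pair of the same number, with replicate 1 the highest and replicate 3 the lowest library in both groups, and the groups overlapped.

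**Figure D5:**
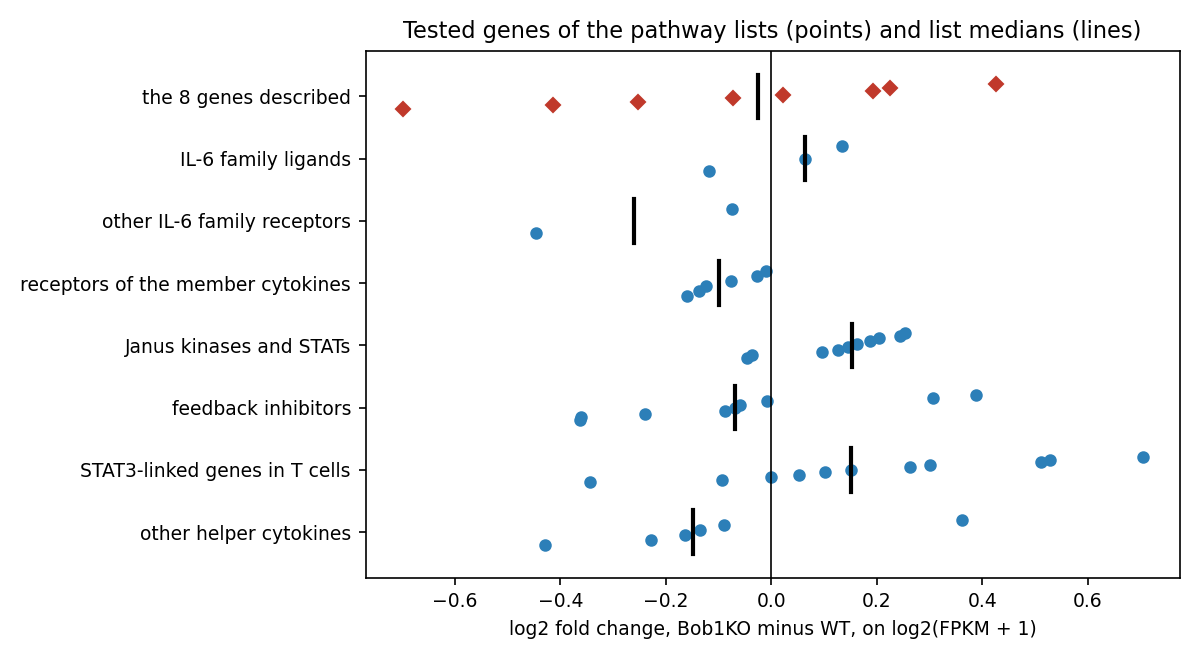
Log2 fold change of Bob1KO over WT of the 8 genes (red diamonds) and of every tested gene of the pathway lists (blue points), with a line at the median of each list. The medians lie between -0.26 and 0.15, and no gene shown passed the adjusted p of 0.05.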

How the data were processed

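Tfh cell RNA was sequenced in 3 WT and 3 Bob1KO libraries (SMART-Seq v4). The authors trimmed reads with cutadapt 1.2.1, aligned them to GRCm38 with TopHat2 2.0.13 and made the deposited FPKM with Cufflinks 2.2.1, with transcripts assembled in each library alone. Tools are as in the submitters' processing notes. A further deposited table holds a group FPKM from a common assembly, used as such, and the authors' log2 fold changes, test scores, p-values and q-values, which were not used.

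Rows with an assembly number held 94.1% to 95.9% of the FPKM of a library, so rows were assigned to genes by position (shared length of at least 0.5 of the joint length, then rows covering at least 0.95 of a gene still without one) and summed. Of rows with a gene name, 99.8% to 99.9% were assigned to that name. FPKM assigned were 86.1% to 87.2% of each library, and 6 genes with a failed status were left out. Genes averaging 1 FPKM or more over the libraries (9955) were tested on log2(FPKM + 1) with limma 3.58.1 in R 4.3.3 (variance trend, group as the only term, Benjamini-Hochberg adjustment, two-sided). This understates changes of low genes. Python 3.11.15 and pandas 2.3.3 were used for the tables. The script was tested on simulated data with 200 changed genes on these 9955 genes, with 9 false calls. The approximate depth was estimated from genes with 1 listed transcript. For each the fragments matching its Cufflinks bounds were divided by its FPKM and transcript length, and the median was taken. The fragments behind a value were read from the Cufflinks bounds as if these held counting error alone. This need not hold for every row. Il6st matched 1724 fragments at 53.8 FPKM in Bob1KO replicate 1 and 7286 fragments at 48.5 FPKM in Bob1KO replicate 2. The bounds do not cover the spread between libraries.

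Same-numbered libraries of both groups deviated together (correlations of 0.112, 0.133 and 0.102 of their deviations from the group means), so the numbers were taken to pair the samples. The main fit does not use this pairing, and the fit with the replicate block is given beside it for Il21, Il2, Il10, Il6ra and Il6st. For Ifng, Il21r and Il27ra the block gave adjusted p values of 0.863, 0.918 and 0.976 (limma). The members and lists were chosen with earlier results of these data known. Genes named are all members, Pou2af1, the most abundant and the 2 tested genes with the smallest limma p of each pathway list, the 5 genes most like Il21 and the most abundant gene of each marker list, and others are said to be named after their values were seen. A gene that this rule names is not reported here. Alternatives changed the pseudocount, the filter, the scaling, the variance trend and the matching, or used the block or left libraries out.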

Additional observations from a re-analysis of the deposited data

How the results depend on the processing

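None of the 8 genes passed the adjusted p of 0.05 with limma under any of the 17 alternatives that gave a test. With the authors' group FPKM, which allow no test, there were 18 alternatives, and of the 144 fold changes under these 141 kept their direction. The 3 that did not were Il21 without WT replicate 3 (-0.02), Il21r without WT replicate 3 (0.00292) and Il27ra without Bob1KO replicate 3 (-0.00400), against 0.19, -0.07 and 0.02 with all libraries. With 1 library left out, the log2 fold change ran from -0.0238 to 0.468 for Il21, from -0.156 to 0.00292 for Il21r and from -0.00400 to 0.0493 for Il27ra. The number of members with an unadjusted p below 0.05 ran from 0 to 3 (the latter without Bob1KO replicate 2), the number whose groups did not overlap from 1 to 3, and the number of all tested genes past the adjusted p from 2 to 7, with 5 without WT replicate 3 and 7 without WT replicate 1. With fewer libraries groups part more easily for any gene. The shares of all tested genes beside these member counts were not computed. The median log2 fold change of the other IL-6 family receptors ran from -0.382 to -0.0222. The medians of 4 lists changed sign, the IL-6 family ligands (-0.117 without WT replicate 1), the receptors of the member cytokines (0.0280 without WT replicate 3), the feedback inhibitors (0.00846 without Bob1KO replicate 3) and the STAT3-linked genes (-0.00846 without WT replicate 3).

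With the replicate block, which pairs libraries of the same number, 1 gene of all tested passed the adjusted p in place of 2, as with a pseudocount of 0.1, and no call of a member changed. Without both replicate 2 libraries 3 members did not overlap. Groups of 2 libraries part more easily than groups of 3 for any gene, and the share of all tested genes was not computed here. With all rows inside the gene summed, an alternative chosen after seeing the data, 2 members did not overlap and 2 had an unadjusted p below 0.05. Rows were summed in this way for the members only, so no like share of all tested genes stands beside these 2 counts. The cause of these changes was not tested. Depth limits Il2 and Il10 most, with as few as 14.3 and 31.0 fragments behind a library's value.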
